A study of Mus musculus with 77 samples.

Results

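The 10 genes described here are the immediate early and Klf genes Fos, Fosb, Jun, Junb, Jund, Atf3, Egr1, Klf4, Klf5 and Klf6, of 46078 genes in the deposited count table. They were chosen by name with earlier results of these data known, among them that Klf6 was lower in Ngn3-expressing cells at 2 days. Their differences between Ngn3-expressing and GFP-only cells at 2 days therefore chose them, and are given as a description with no test. All 10 passed the filter on low values at both time points, which kept genes with reads in 5 or more libraries, and each had between 47 and 120141 reads per biological replicate.

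The cells came from organoids grown from adult pancreatic ducts of C57BL/6 mice, which are three-dimensional cultures of ductal epithelium. All groups came from organoids infected with a lentivirus that switches on its insert with a tetracycline-type inducer, and all except the no-color cells were sorted for GFP. The inserts were GFP only, GFP joined to wild-type Neurogenin3 (WT Ngn3), or GFP joined to 6S-A Ngn3, in which the serines of the 6 serine-proline sites of Ngn3 are replaced by alanine. GFP only, WT Ngn3 and 6S-A Ngn3 were sampled after 2 days of induction, while WT Ngn3 and 6S-A Ngn3 were sampled after 8 days beside cells without reporter color from the same WT and 6S-A organoids (no-color WT and no-color 6S-A). The no-color cells were thus sorted from infected cultures, and no GFP-only group of 8 days was analysed here. The study's text describes GFP-only cells as the control at the later time as well, and the labels, which give no-color cells there, were followed. Each library held a pool of 50 sorted cells, and each of the 7 groups had 3 biological replicates, all of passage 2 except replicate 3 of 8 days, which was of passage 5. Nothing in the labels says that the replicates came from separate mice, so the errors measure the spread between these cultures. Organoids of every group were broken into single cells with an enzyme before sorting.

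Fos, Fosb, Jun, Junb and Jund encode subunits of AP-1, a dimeric transcription factor made of a Fos and a Jun protein or of 2 Jun proteins, and Atf3 encodes a related leucine zipper protein that pairs with Jun proteins. Immediate early genes such as Fos and Egr1 are switched on within minutes by growth factors acting through ERK, by stress and by tissue dissociation, without new protein synthesis, and their mRNAs are short-lived. Klf4, Klf5 and Klf6 encode zinc finger factors that bind GC-rich promoter sequences, and Klf5 is known for its role in epithelial cells of the gut and pancreatic ducts. Ngn3 is a basic helix-loop-helix factor that binds E boxes (CANNTG) and starts endocrine differentiation.

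On build GRCm38 (mm10), Fos lies at chr12:85473890-85477273, Fosb at chr7:19302696-19310051, Jun at chr4:95049034-95052222, Junb at chr8:84974484-84978718, Jund at chr8:70698949-70700616, Atf3 at chr1:191170296-191218039, Klf4 at chr4:55527143-55532466, Klf5 at chr14:99298691-99315036 and Klf6 at chr13:5861482-5870394. The reads counted are those on exons of these protein-coding genes.

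The promoters of Fos, Junb and Klf6 are shown because these genes had among the clearest differences at 2 days and stand for the Fos, Jun and Klf families. RefSeq promoter windows of 300 bases, from 250 bases before the start site to 50 bases from it on, were at hand for 8 of the 10 genes on build GRCm38.p6 (all but Egr1 and Klf5). The windows lie at chr12:85473640-85473939 on the plus strand for Fos, chr8:84978699-84978998 on the minus strand for Junb and chr13:5861239-5861538 on the plus strand for Klf6. Capitals mark E boxes (CANNTG) and TGACG, the first bases of the cyclic AMP response element, on either strand.
Fos: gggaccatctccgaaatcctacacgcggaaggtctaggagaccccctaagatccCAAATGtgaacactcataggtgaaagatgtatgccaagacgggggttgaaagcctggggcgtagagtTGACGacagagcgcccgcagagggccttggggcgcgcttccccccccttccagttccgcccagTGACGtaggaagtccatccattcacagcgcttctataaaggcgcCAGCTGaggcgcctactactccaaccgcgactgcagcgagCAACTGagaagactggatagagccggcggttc
Junb: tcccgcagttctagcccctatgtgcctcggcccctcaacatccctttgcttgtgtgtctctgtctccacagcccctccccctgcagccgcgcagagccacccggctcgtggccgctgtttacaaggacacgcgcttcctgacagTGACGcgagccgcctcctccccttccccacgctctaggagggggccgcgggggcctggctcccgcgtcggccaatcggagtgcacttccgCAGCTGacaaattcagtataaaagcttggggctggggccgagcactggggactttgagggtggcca
Klf6: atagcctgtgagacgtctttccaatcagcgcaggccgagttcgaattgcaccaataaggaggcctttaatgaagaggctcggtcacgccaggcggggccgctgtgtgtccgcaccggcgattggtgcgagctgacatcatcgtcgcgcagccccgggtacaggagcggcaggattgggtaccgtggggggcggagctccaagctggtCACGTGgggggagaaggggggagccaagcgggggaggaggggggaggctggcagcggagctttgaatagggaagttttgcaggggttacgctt
In the Fos window E boxes begin at -196, -22 and 19 from the start site and TGACG at -129 and -66. The Junb window has an E box at -16 and TGACG at -106, and the Klf6 window holds 1 E box, at -43. An E box was found in all 8 windows, as in 72.3% of 32851 RefSeq promoters of the same length. CAGATG, which is one form of the E box, was found in those of Atf3 and Jund, against 17.2% of all promoters. TGACG was found in 5 of the 8 (Fos, Fosb, Junb, Atf3 and Klf4), against 20.8% of all promoters, and the GC box GGGCGG in 6 (all but Junb and Jund), against 35.7%. Neither the full cyclic AMP response element TGACGTCA, of which TGACG is a part, nor the AP-1 site TGANTCA or the CArG box was found in any of the 8, while 1.79%, 7.81% and 1.63% of all promoters held them. These matches describe letters in the windows and no binding was measured. Sites more than 250 bases before the start site, and the promoters of Egr1 and Klf5, were not searched.

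Levels below are CPM, reads scaled to a total of 1000000 reads on genes with scaling factors across the 21 biological replicates, and differences are log2 differences fitted by edgeR with their standard errors. Libraries held 1501002 to 5632412 reads on genes at 2 days and 2397470 to 9202142 at 8 days. Neurog3, the gene that was expressed, was at 0.0386 to 0.0732 CPM in GFP only and at 89.6 to 206 and 101 to 198 CPM in WT and 6S-A Ngn3 at 2 days. At 8 days it was at 6.85 to 46.0 CPM in WT and 9.85 to 15.3 CPM in 6S-A Ngn3, and at most 0.988 CPM in no-color cells, so that groups labelled as expressing Ngn3 were apart from those labelled as not expressing it. The levels of WT and 6S-A Ngn3 overlap and counts per gene do not show the replaced serines, so these 2 labels were not checked against each other. Reads of the introduced and the endogenous gene cannot be told apart in these counts. Among the 8-day libraries, the 11 of replicate 1 stood apart from those of replicates 2 and 3 in several of the 10 genes, across all 4 groups. Mitochondrial reads made up 3.08% to 6.60% of them, against 6.74% to 11.2% in replicate 2 and 8.16% to 17.9% in replicate 3.

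Per kilobase of exon, which allows genes to be compared, the levels in GFP-only cells at 2 days ran from 1224 ± 55.2 CPM per kb for Fos (SD, n = 3) to 29.3 ± 5.55 for Jund. Atf3 followed Fos at 567.97 ± 124 CPM per kb. Junb, Egr1 and Jun were at 273 ± 36.05, 235 ± 10.5 and 229 ± 35.2, which lie within their spread of each other. Klf6 was at 139 ± 38.3, Fosb at 85.8 ± 28.4, Klf4 at 35.1 ± 11.6 and Klf5 at 33.1 ± 1.21. The immediate early genes were thus among the expressed genes of the control cells, with Fos the highest of the 10.

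**Figure D1:**
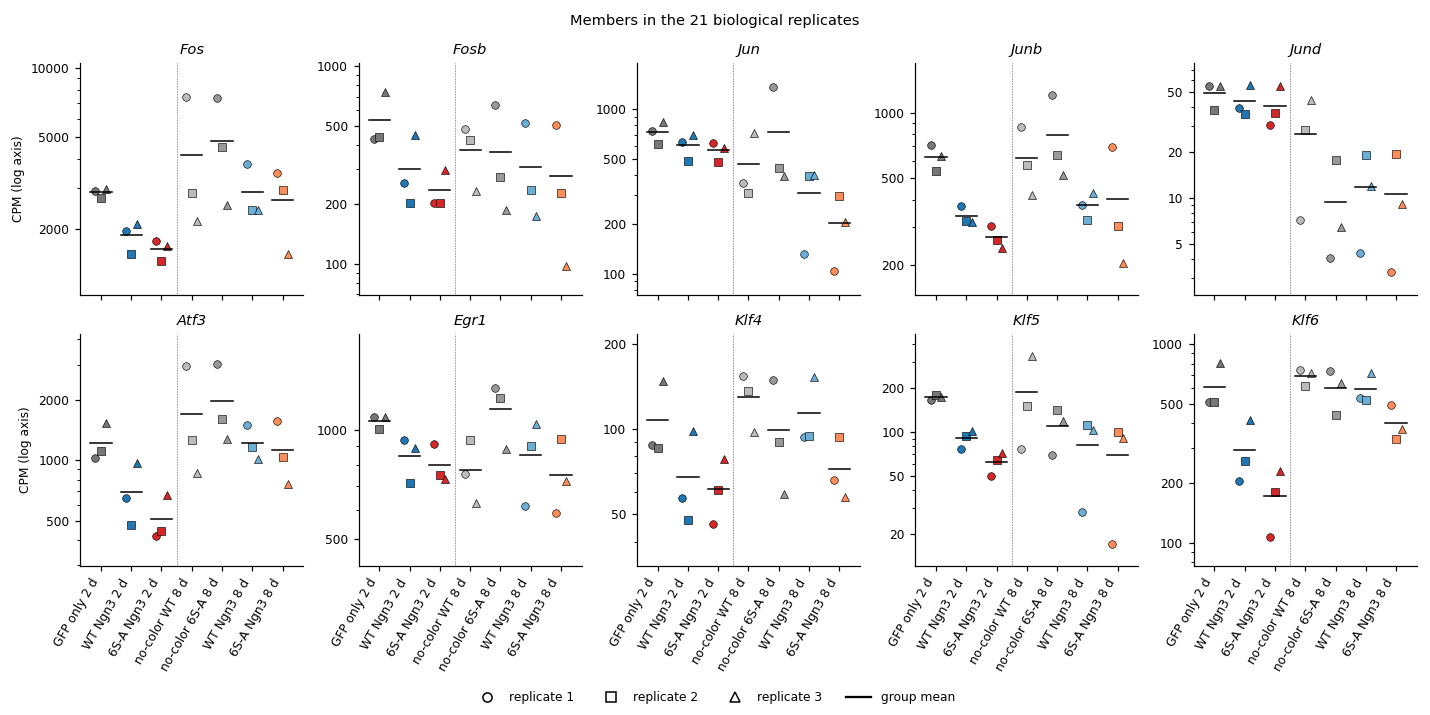
Level of each of the 10 genes in CPM (log axis) in the 7 groups, with 1 point per biological replicate (circle, square and triangle for replicates 1, 2 and 3) and a line at the group mean. At 2 days the group means of all 10 genes fall in the order GFP only, WT Ngn3, 6S-A Ngn3, and in each of the 4 groups of 8 days replicate 1 is the highest point for Fos and the lowest for Klf5.

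At 2 days, all 10 genes had lower means in WT Ngn3 than in GFP-only cells and lower means again in 6S-A Ngn3 cells. The order GFP only, WT Ngn3, 6S-A Ngn3 was held by 25.4% of all genes tested. The median difference from GFP only over the 10 genes was -0.73 for WT and -1.002 for 6S-A Ngn3, while the median of all genes was 0.01 and 0.02. The threshold for a call is an adjusted p of 0.05, and 5.23% and 8.62% of all genes were called lower with WT and 6S-A Ngn3. Since these contrasts chose the genes, calls among the 10 are not counted, and nothing is read from their order or median. Both sets of differences share the GFP-only replicates. In pools of cells, fewer expressing cells and less RNA per cell cannot be told apart.

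Klf6 differed most. It was at 510, 513 and 803 CPM in replicates 1 to 3 of GFP only, at 204, 257 and 416 in WT Ngn3 and at 107, 179 and 230 in 6S-A Ngn3. Both Ngn3 groups lay wholly below GFP only, while WT and 6S-A Ngn3 overlapped. The fitted difference from GFP only was -1.05 (SE 0.34, 2.07-fold lower) for WT and -1.83 (SE 0.35, 3.55-fold lower) for 6S-A Ngn3. Within same-numbered replicates it was between -1.32 and -0.95 for WT and between -2.25 and -1.51 for 6S-A Ngn3. Replicate 3 was the highest in each of the 3 groups.

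Klf5 was at 165, 178 and 174 CPM in GFP only, at 75.7, 94.0 and 102 in WT Ngn3 and at 50.0, 64.0 and 71.8 in 6S-A Ngn3. The 3 groups did not overlap. The differences from GFP only were -0.92 (SE 0.15) for WT and -1.48 (SE 0.15) for 6S-A Ngn3, folds of 1.89 and 2.79. Klf4 was lower and more variable, at 87.9, 85.6 and 148 CPM in GFP only, 56.9, 47.6 and 98.2 in WT Ngn3 and 46.0, 60.7 and 78.1 in 6S-A Ngn3. Its 6S-A Ngn3 group lay below GFP only and its WT group overlapped it, with differences of -0.66 (SE 0.32) for WT and -0.80 (SE 0.32) for 6S-A Ngn3.

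Of the Fos genes, Fos was at 2910, 2736 and 2990 CPM in GFP only, at 1960, 1562 and 2101 in WT Ngn3 and at 1779, 1456 and 1695 in 6S-A Ngn3. Both Ngn3 groups lay below GFP only and overlapped each other. The differences were -0.61 (SE 0.13) and -0.81 (SE 0.13). Fosb, which encodes a second Fos protein, was at 429, 438 and 740 CPM in GFP only, 255, 202 and 447 in WT Ngn3 and 204, 203 and 298 in 6S-A Ngn3. Only its 6S-A group was clear of GFP only, and its differences were -0.82 (SE 0.33) and -1.19 (SE 0.33).

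The Jun genes differed among themselves. Junb was at 707, 541 and 634 CPM in GFP only, 373, 320 and 317 in WT Ngn3 and 303, 262 and 240 in 6S-A Ngn3, so that the 3 groups were separate. Its differences from GFP only were -0.89 (SE 0.13) and -1.23 (SE 0.13). Jun was at 736, 614 and 838 CPM in GFP only, 638, 483 and 702 in WT Ngn3 and 627, 482 and 582 in 6S-A Ngn3, and the groups overlapped. Its differences were -0.26 (SE 0.16) and -0.37 (SE 0.16). Jund, usually the most constant of the Jun genes, was at 38.2 to 54.4 CPM in GFP only, 35.5 to 55.1 in WT Ngn3 and 30.4 to 54.5 in 6S-A Ngn3. Its differences of -0.17 and -0.28 were close to their standard errors of 0.23, and 1 of 3 same-numbered pairs went the other way with each protein. Reads of Jun, Junb and Jund may include some from genes on the other strand that overlap their exons (Junos, Prdx2 and Gm11175), since the strand setting of the counting is not given in the sources used here.

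Atf3, a stress-inducible repressor, was at 1028, 1113 and 1529 CPM in GFP only, 645, 474 and 973 in WT Ngn3 and 417, 445 and 668 in 6S-A Ngn3. Both Ngn3 groups lay below GFP only, by -0.80 (SE 0.27) and -1.27 (SE 0.28). Egr1, a zinc finger factor induced through ERK, was at 1085, 1001 and 1081 CPM in GFP only, 934, 713 and 891 in WT Ngn3 and 914, 752 and 730 in 6S-A Ngn3. Both groups were below GFP only, with the smaller differences of -0.31 (SE 0.13) and -0.40 (SE 0.13). Over the 10 genes, Ngn3 groups that did not overlap GFP only numbered 6 for WT, where 13.2% of all genes were lower without overlap, and 8 for 6S-A Ngn3, where 16.1% were. Nothing is read from these counts, since the same contrasts chose the genes.

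**Figure D2:**
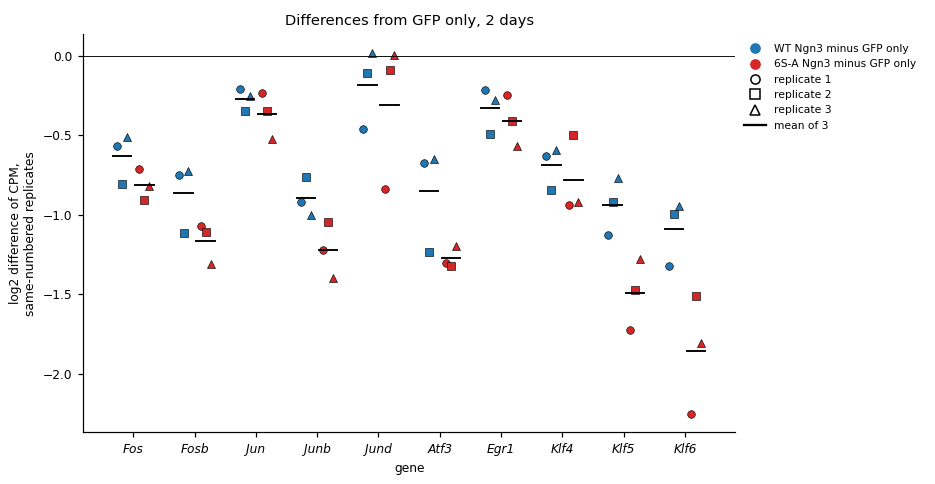
Log2 difference of CPM from GFP only at 2 days for each gene, within same-numbered replicates, for WT Ngn3 (blue) and 6S-A Ngn3 (red), with the mean of 3 as a line. Apart from 1 pair of Jund with each protein, every point lies below 0, and Klf6 with 6S-A Ngn3 reaches -2.25.

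In the single pools of 50 cells, on a CPM scale set across the 76 libraries, 4 genes are described in full. Fos ranged from 2490 to 3374 CPM over the 18 pools of GFP only (median 2995), from 1381 to 2457 in WT Ngn3 (median 1988) and from 1043 to 2189 in 6S-A Ngn3 (median 1712), so that no Ngn3 pool reached the lowest GFP-only pool. Junb ranged from 475 to 821 CPM in GFP only (median 645), from 221 to 449 in WT (median 351) and from 211 to 360 in 6S-A Ngn3 (median 266), again with no overlap with GFP only. Klf5 ranged from 134 to 231 CPM in GFP only (median 177), from 63.0 to 135 in WT (median 94.2) and from 39.6 to 81.8 in 6S-A Ngn3 (median 65.5). The highest WT pool of Klf5 thus just reached the GFP-only range and no 6S-A pool did. Klf6 ranged from 484 to 890 CPM in GFP only (median 549), from 156 to 602 in WT (median 277) and from 83.9 to 313 in 6S-A Ngn3 (median 162). Its 6S-A pools were all below GFP only and its WT pools overlapped it through replicate 3. The other 6 genes were less separate. Atf3 had 6S-A pools of up to 907 CPM, below the lowest GFP-only pool of 954, but WT pools of up to 1363. Pools of Fosb, Jun, Jund, Egr1 and Klf4 overlapped GFP only with both proteins, although Egr1 had not overlapped by replicate. The median of Jund was 42.4 CPM in GFP only and 46.1 in WT Ngn3, and that of Klf4 was 58.0 in WT and 63.7 in 6S-A Ngn3, against the order of the replicate means.

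**Figure D3:**
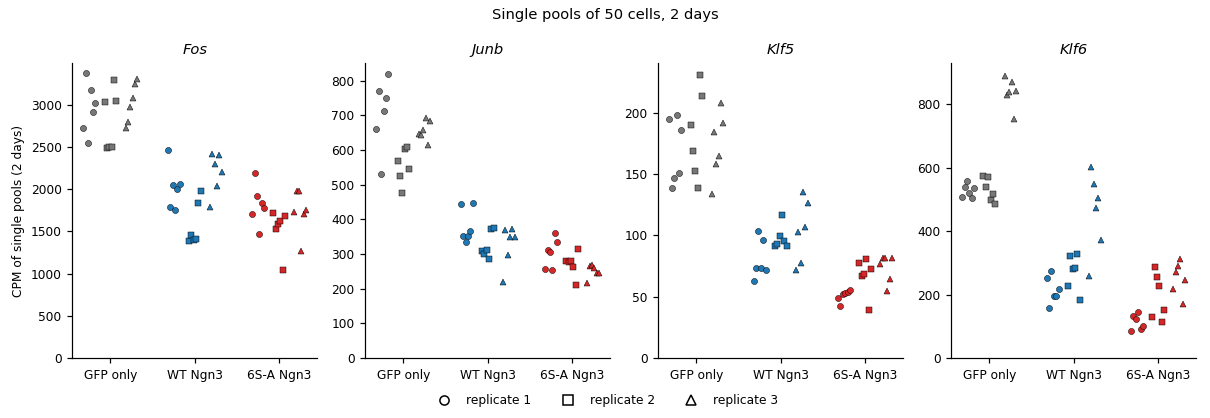
CPM (linear axis from 0) of Fos, Junb, Klf5 and Klf6 in every single pool of 50 cells at 2 days, by group and biological replicate. The lowest GFP-only pool of Fos, at 2490, lies above the highest WT Ngn3 pool, at 2457, and for Klf6 the highest pool of each group belongs to replicate 3.

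Pools of one biological replicate are technical repeats and were summed for every comparison. The median coefficient of variation between the 6 pools of a replicate at 2 days was 12.6% for Fos and Junb, 9.23% for Egr1, 20.3% for Klf6 and 29.04% for Jund, the lowest in level of the 10. In 6 pairs of pools, each made of technical repeats 2 and 3 from biological replicate 2 or 3, the counts differed less (mean chi-square over genes from 1.61 to 2.44) than in the other 142 pairs (from 5.41 to 60.8), and these pools may not be separate libraries. Without technical repeat 3 of those replicates the lowest GFP-only pool of Junb was at 524 CPM, and the ranges of Fos, Klf5 and Klf6 were the same.

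After each replicate's mean was subtracted, levels of several members went up and down together from pool to pool at 2 days. Over the 54 pools, which share plates, handling and scaling factors, Pearson's r of log2 CPM was 0.71 between Fos and Fosb, 0.64 between Fos and Junb, 0.64 between Fos and Atf3 and 0.67 between Fosb and Atf3. Egr1 went with Fosb at 0.64, and Klf6 went with Atf3 at 0.60 but with Fos at 0.21. Jund had an r of -0.09 with Fos. Over all 45 pairs the median was 0.29 with a range from -0.11 to 0.71, and the median without technical repeat 3 of biological replicates 2 and 3 was also 0.29. In replicate 3 of each group, technical repeats 5 and 6 had more reads and lower mitochondrial shares than repeats 1 to 4. For GFP only these shares were 6.07% and 5.94% against 14.0% to 15.7%. Subtracting the replicate mean leaves this split in the 54 points, and its part in r was not tested.

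**Figure D4:**
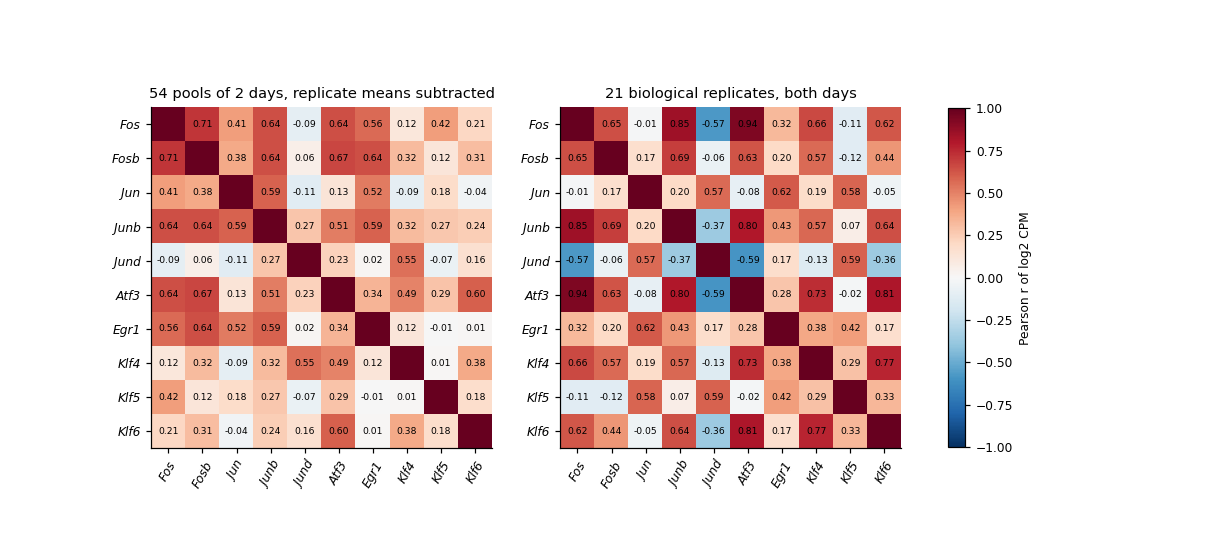
Pearson's r of log2 CPM between the 10 genes, over the 54 pools of 2 days after subtracting each replicate's mean (left) and over the 21 biological replicates of both days (right). Fos, Fosb, Junb, Atf3 and Egr1 form the block of higher values on the left, while Jund has an r of -0.57 with Fos on the right.

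Over the 21 biological replicates, which fall into 7 groups and 2 time points, the 5 genes whose log2 CPM was most like that of Fos among 9875 genes at 10 CPM or more were Atf3 (r = 0.94), Rassf7 (0.94), Zfp36 (0.93), Nr4a1 (0.92) and Elf3 (0.91). Zfp36 encodes a protein that brings about decay of short-lived mRNAs, Nr4a1 is an immediate early nuclear receptor and Elf3 an epithelial Ets factor. Most like Klf6 were Ahnak (0.94), Plaur (0.94), Il1rn (0.92), Sdc4 (0.91) and Ankrd1 (0.90). Plaur encodes the urokinase receptor, Il1rn an antagonist of the interleukin 1 receptor and Sdc4 a cell surface proteoglycan.

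Marker sums moved with the groups at 2 days. The summed CPM of 12 ductal markers was 18046 to 19887 in GFP only, 11097 to 11905 in WT and 9286 to 10097 in 6S-A Ngn3, and 8 of the 12 were called lower with each protein. The sum of 12 endocrine markers was 1.204 to 2.62 CPM in GFP only, 218 to 1112 in WT and 542 to 1180 in 6S-A Ngn3, with 11 and 12 of the 12 called higher. Their part in the differences of the 10 genes was not tested. The marker lists were also drawn up with earlier results known, and their calls come from the contrasts that chose the 10 genes. Sums for 10 acinar, 8 mesenchymal, 6 endothelial and 7 immune markers were at most 20.7, 5.18, 10.3 and 17.0 CPM in any replicate of the study, and the acinar genes Cpa1, Ptf1a and Pnlip, the mesenchymal gene Col3a1 and the T cell gene Cd3e had no reads in any group. Of these lists, Cela1 was called lower with WT Ngn3 (-2.04, SE 0.49, adjusted p = 0.013) and Pecam1 higher with 6S-A Ngn3 (4.08, SE 1.12, adjusted p = 0.020), both from low levels. The share of mitochondrial reads overlapped between the groups at 2 days (4.70% to 13.8% in 6S-A Ngn3, 5.84% to 16.5% in WT and 5.94% to 15.7% in GFP only).

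Other genes of the same families and pathways were counted over lists drawn up with earlier results known. These lists were tested in the same contrasts with GFP only that chose the genes described here. Counts of calls and adjusted p-values for them, down to the heat shock genes below, are therefore a description. They are not independent evidence for a fall of a family or pathway. Of 16 tested genes encoding other AP-1, Maf and ATF proteins, 4 were called lower and 0 higher with WT Ngn3 at 2 days, where 11.8% of all genes were called (6.56% higher), and 6 lower and 0 higher with 6S-A Ngn3, where 18.1% were (9.43% higher). Among them Fosl1, which encodes a Fos-related protein, fell by 0.99 (SE 0.25, adjusted p = 0.023) with WT and by 1.64 (SE 0.26, adjusted p = 6.3e-04) with 6S-A Ngn3. Maff, a small Maf protein gene, fell by 0.94 (SE 0.26, adjusted p = 0.028) and 1.44 (SE 0.26, adjusted p = 0.0014). Mafk fell by 0.63 (SE 0.12, adjusted p = 0.0032) and fell by 0.73 (SE 0.12, adjusted p = 7.3e-04). Creb5 fell by 2.17 with 6S-A Ngn3 (SE 0.29, adjusted p = 1.0e-04), from 13.5 to 19.3 CPM in GFP only to 2.48 to 5.26 CPM, and differed by -0.77 with WT Ngn3 (SE 0.27, adjusted p = 0.090). Over the tested genes of this list the median difference was 0.007 with WT and -0.22 with 6S-A Ngn3.

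Of 39 other immediate early genes, 11 were called lower and 3 higher with WT Ngn3, and 14 lower and 4 higher with 6S-A Ngn3, where 5.23% and 8.62% of all genes were called lower and 6.56% and 9.43% higher. The list's median differences were -0.41 with each protein. The largest changes were those of Pim1, a kinase gene at 6.71 to 8.38 CPM in GFP only (-1.32, SE 0.29, adjusted p = 0.0073 with WT and -2.04, SE 0.30, adjusted p = 2.3e-04 with 6S-A Ngn3), and of Ccn2, which encodes a matricellular growth factor (-1.09, SE 0.25, adjusted p = 0.014 and -1.75, SE 0.25, adjusted p = 5.1e-04). Zfp36l2 fell by 1.04 with WT (SE 0.19, adjusted p = 0.0025) and by 1.51 with 6S-A Ngn3 (SE 0.20, adjusted p = 8.5e-05). Nfkbiz, an NF-kB cofactor gene, fell by 0.95 with WT (SE 0.12, adjusted p = 1.7e-04) and by 1.55 with 6S-A Ngn3 (SE 0.13, adjusted p = 1.6e-06), from 423 to 541 CPM in GFP only to 153 to 165 CPM in the latter.

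Of 26 upstream regulators of these genes, 4 were called lower with WT and 5 with 6S-A Ngn3 and 0 higher with either, against the same 5.23% and 8.62% of all genes called lower. Erbb3, a receptor of the EGF receptor family, fell by 1.11 (SE 0.16, adjusted p = 3.4e-04) and 1.52 (SE 0.16, adjusted p = 1.6e-05), and Rps6ka1, a kinase acting below ERK, by 0.69 (SE 0.12, adjusted p = 0.0015) and 1.10 (SE 0.12, adjusted p = 2.0e-05). Erbb2 fell by 0.56 with WT (SE 0.15, adjusted p = 0.027) and by 0.69 with 6S-A Ngn3 (SE 0.15, adjusted p = 0.0055). Nab1, a corepressor of Egr proteins, fell by 0.89 with 6S-A Ngn3 (SE 0.16, adjusted p = 0.0011) and differed by -0.43 with WT Ngn3 (SE 0.15, adjusted p = 0.099). Over the upstream regulators the median difference was -0.10 with WT and -0.15 with 6S-A Ngn3. This list and that of other immediate early genes also hold genes with roles outside the immediate early response.

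The other Klf and Sp genes did not all go one way. Of 20 tested, 2 were called higher and 2 lower with WT and 2 higher and 4 lower with 6S-A Ngn3, where 11.8% and 18.1% of all genes were called in either direction. Klf12 rose from 0 to 0.556 CPM in GFP only to 0.628 to 4.04 CPM in WT (adjusted p = 0.039) and 2.68 to 2.80 CPM in 6S-A Ngn3 (adjusted p = 0.022), levels at which the fold is uncertain. Sp4 rose by 1.52 (SE 0.21, adjusted p = 2.6e-04) and 1.14 (SE 0.21, adjusted p = 0.0014), and Klf9 fell by 0.84 (SE 0.24, adjusted p = 0.037) and 1.01 (SE 0.24, adjusted p = 0.0095). Over the tested Klf and Sp genes the median difference was -0.15 with WT and -0.26 with 6S-A Ngn3. Of 17 heat shock genes, 2 were called lower and 1 higher with WT and 5 lower and 1 higher with 6S-A Ngn3, against the same shares of all genes. Hspb1 fell by 1.82 (SE 0.21, adjusted p = 7.0e-05) and fell by 1.80 (SE 0.21, adjusted p = 4.1e-05). Hspa1a fell by 1.28 (SE 0.29, adjusted p = 0.010) and 2.31 (SE 0.31, adjusted p = 1.1e-04) and Hspa1b by 1.99 with 6S-A Ngn3 (SE 0.62, adjusted p = 0.045; -1.02 with WT Ngn3, SE 0.60, adjusted p = 0.36), though reads of these nearly identical genes may be split between them. Hsf2, a heat shock factor gene, rose by 0.54 with WT (SE 0.16, adjusted p = 0.038) and by 0.62 with 6S-A Ngn3 (SE 0.16, adjusted p = 0.013). The median difference of the heat shock genes was -0.11 with WT and -0.17 with 6S-A Ngn3. A gene past the threshold with 1 protein only is not shown to differ between the proteins. As for the other lists, nothing is read from the calls of Klf, Sp and heat shock genes.

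Whether 6S-A Ngn3 differed from WT Ngn3 at 2 days was tested on the same libraries in a contrast that did not choose the genes, though both groups entered the contrasts that did. All 10 genes were lower in 6S-A than in WT Ngn3 by the fit, with a median difference of -0.27 against -0.00 for all genes, but none passed the threshold in edgeR's quasi-likelihood test or in DESeq2, where 0.0126% and 0.407% of all genes did. At an unadjusted p of 0.05, which 5.79% of all genes passed, 3 of the 10 did: Klf5 (-0.56, SE 0.15, 95% interval -0.87 to -0.25, p = 0.0018, adjusted p = 0.44), Junb (-0.34, SE 0.13, interval -0.62 to -0.06, p = 0.022, adjusted p = 0.77) and Klf6 (-0.78, SE 0.34, interval -1.55 to -0.01, p = 0.048, adjusted p = 0.86). These 3 and Fos, Jun and Atf3 were lower in 6S-A Ngn3 in all 3 same-numbered pairs, as were 14.8% of all genes. Klf5 and Junb did not overlap between the proteins, where 5.21% of all genes were lower without overlap.

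The call for Klf5 and Klf6 depended on the pairing of replicates. With the replicate number as a block, taken as a pair of cultures since same-numbered replicates deviated together at 2 days, Klf5 fell by 0.56 (SE 0.09, adjusted p = 0.014) and Klf6 by 0.77 (SE 0.11, adjusted p = 0.010) in 6S-A relative to WT Ngn3, and 0.617% of all genes were called. Junb (-0.34, adjusted p = 0.083) and Atf3 (-0.44, adjusted p = 0.087) did not pass. In the pairs, the Klf6 difference was -0.93, -0.52 and -0.86 and the Klf5 difference was -0.60, -0.56 and -0.51. For Fos the interval of the difference without the block was -0.48 to 0.07, for Jun -0.46 to 0.23 and for Egr1 -0.37 to 0.18.

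At 8 days, each Ngn3 group was compared with the no-color cells of its own organoids, a comparison that did not choose the genes. Of the 10 genes, 9 were lower in WT Ngn3 cells and 9 in 6S-A Ngn3 cells, with median differences of -0.45 and -0.65 against 0.01 and 0.03 for all genes. None passed the threshold with either protein in edgeR, where 0.249% and 0.584% of all genes did, in DESeq2, where 2.14% and 2.55% did, or with the replicate block, where 1.24% and 2.02% did. At an unadjusted p of 0.05, which 11.2% and 9.20% of all genes passed, 0 of the 10 did with WT and 2 with 6S-A Ngn3, Jun and Junb. At 8 days the ductal sums were 14534 to 17069 CPM in WT and 10768 to 26073 in 6S-A Ngn3 against 17381 to 42632 and 33638 to 38722 in their no-color cells, and the endocrine sums 43.1 to 2219 and 269 to 2932 against at most 8.94 CPM. Their part in the differences was not tested. In the same-numbered pairs, 2 of the 10 genes were lower in all 3 pairs with WT Ngn3, as were 14.2% of all genes, and 8 of the 10 with 6S-A Ngn3, as were 17.5%. The difference between these 2 counts was not tested.

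Jun had the largest difference. It was at 105, 298 and 206 CPM in replicates 1 to 3 of 6S-A Ngn3 and at 1369, 443 and 392 CPM in no-color 6S-A. The groups did not overlap, as was the case for 7.47% of all genes in the lower direction. The difference was -1.86 (SE 0.56, 95% interval -3.04 to -0.68, p = 0.0042, adjusted p = 0.21). Replicate 1 decided its size: the paired differences were -3.71, -0.57 and -0.92, and without replicate 1 of every group the fitted difference was -0.78 (SE 0.45, adjusted p = 0.85). In WT Ngn3 Jun was at 133, 395 and 402 CPM against 359, 311 and 719 in no-color WT, groups that overlapped, with a difference of -0.56 (95% interval -1.71 to 0.58, adjusted p = 0.75), or -0.31 without replicate 1.

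Junb was at 696, 302 and 206 CPM in 6S-A Ngn3 and at 1203, 639 and 520 in no-color 6S-A. Its difference was -0.97 (SE 0.44, 95% interval -1.89 to -0.05, p = 0.040, adjusted p = 0.51), and without replicate 1 it was -1.24 (SE 0.44, adjusted p = 0.42). In WT Ngn3 it was at 377, 322 and 429 CPM against 863, 575 and 420 in no-color WT, a difference of -0.68 (95% interval -1.60 to 0.23, adjusted p = 0.58) that was -0.37 without replicate 1. The WT value of replicate 1 joined 2 pools of 61.5 and 742 CPM, which lay 12.1-fold apart, the widest gap between pools of 1 replicate for this gene at 8 days.

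Fos was at 3505, 2942 and 1558 CPM in 6S-A Ngn3 and 7356, 4507 and 2532 in no-color 6S-A, and at 3824, 2412 and 2413 CPM in WT Ngn3 and 7468, 2848 and 2172 in no-color WT. The differences were -0.84 (95% interval -1.83 to 0.14, adjusted p = 0.67) and -0.48 (interval -1.46 to 0.50, adjusted p = 0.75), and the latter was -0.03 without replicate 1. Atf3 went the same way, with 764 to 1561 CPM in 6S-A Ngn3 against 1279 to 3031 in its no-color cells and a difference of -0.82 (interval -1.74 to 0.10, adjusted p = 0.63). In WT Ngn3 it was at 1011 to 1501 CPM against 868 to 2967 in no-color WT, higher in 1 of 3 pairs, with a difference of -0.42 (interval -1.34 to 0.49, adjusted p = 0.77) that was 0.06 without replicate 1. Replicate 1 held the highest Fos and Atf3 level of each of the 4 groups.

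Klf6 was at 496, 333 and 374 CPM in 6S-A Ngn3 and 733, 440 and 639 in no-color 6S-A, lower in all 3 pairs, with a difference of -0.60 (SE 0.30, 95% interval -1.23 to 0.03, adjusted p = 0.58). In WT Ngn3 it was at 539, 522 and 718 CPM against 742, 617 and 715, a difference of -0.19 (interval -0.83 to 0.44, adjusted p = 0.86). That difference ran from -0.35 to -0.056 over all settings of the processing. Klf5 was at 17.0, 99.4 and 90.4 CPM in 6S-A Ngn3 against 69.8, 141 and 119, and at 28.2, 112 and 102 CPM in WT Ngn3 against 75.8, 151 and 332, lower in every pair with both proteins. Its differences were -0.70 (interval -2.12 to 0.73, adjusted p = 0.96) and -1.20 (interval -2.64 to 0.24, adjusted p = 0.53), with replicate 1 lowest in all 4 groups. Fosb, Egr1 and Klf4 had differences between -0.60 and 0.16 with standard errors of 0.31 to 0.58, and Egr1 in WT Ngn3 was the gene above 0. Over all settings of the processing, those with WT Ngn3 ran from -0.89 to 0.031 for Fosb, -0.12 to 0.34 for Egr1 and -0.43 to 0.12 for Klf4. Those with 6S-A Ngn3 ran from -1.17 to 0.25, -0.81 to -0.32 and -0.72 to -0.032.

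Jund had a lower fitted level with WT but not with 6S-A Ngn3. It was at 3.26 to 19.6 CPM in 6S-A Ngn3 and 4.04 to 17.9 in no-color 6S-A, with a difference of 0.16 (95% interval -1.50 to 1.82, adjusted p = 1.0). In WT Ngn3 it was at 4.35 to 19.2 CPM against 7.16 to 44.3, a difference of -1.16 (interval -2.85 to 0.54, adjusted p = 0.63). These intervals are the widest of the 10 genes in each comparison, and that with 6S-A Ngn3 reaches to a 3.53-fold higher level. The paired differences with WT Ngn3 were -0.72, -0.54 and -1.88. Replicate 3 of no-color WT was 1 library of 2397470 reads, 77 of them of Jund, and it also held the 332 CPM of Klf5.

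**Figure D5:**
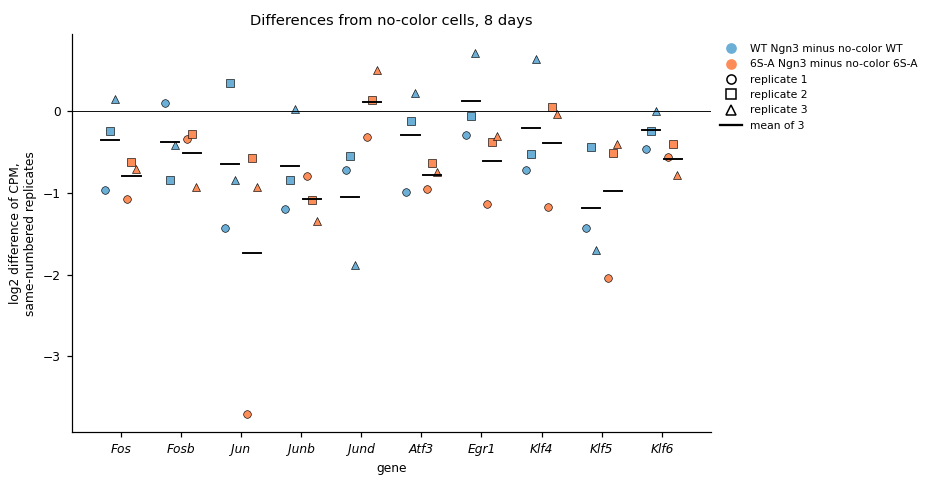
Log2 difference of CPM between Ngn3-expressing and no-color cells of 8 days for each gene, within same-numbered replicates, for WT Ngn3 (light blue) and 6S-A Ngn3 (orange), with the mean of 3 as a line. The 6S-A points of Fos, Fosb, Jun, Junb, Atf3, Egr1, Klf5 and Klf6 are all below 0, and the point of Jun in replicate 1, at -3.71, lies far from the other 2.

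Between the proteins at 8 days, 9 of the 10 genes were lower in 6S-A than in WT Ngn3 and none passed the threshold in edgeR, in DESeq2 or with the replicate block, where 0.0% of all genes did each time. None passed an unadjusted p of 0.05 in edgeR, where 2.11% of all genes did. Klf4 (57.4 to 93.4 CPM in 6S-A against 93.8 to 153 in WT Ngn3) and Klf6 (333 to 496 against 522 to 718) did not overlap between the proteins, where 2.24% of all genes were lower without overlap. Their differences were -0.67 (95% interval -1.45 to 0.11) and -0.58 (interval -1.21 to 0.05), each with an adjusted p of 1.0. The difference between the effects of the 2 proteins against their own no-color cells was also tested. None of the 10 passed (adjusted p = 1.0 for each) or had an unadjusted p of 0.05, which 3.28% of all genes had. The values furthest from 0 were -1.30 (SE 0.77) for Jun, which was -0.47 (SE 0.63) without replicate 1 of every group, and 1.32 (SE 1.12) for Jund, which was 1.35 (SE 0.92). Between the no-color groups none of the 10 passed the threshold in edgeR or an unadjusted p of 0.05, which 8.37% of all genes passed, with differences from -1.46 (SE 0.80) for Jund to 0.67 (SE 0.54) for Jun in no-color 6S-A relative to no-color WT, the latter being -0.21 without replicate 1.

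Levels at 8 days were set beside those at 2 days in a joint fit. The 2-day libraries are those behind the choice of the genes, so these differences are a description with no test. The labels name no sequencing run, and the day cannot be told apart from any batch that went with it. In the fit 0 of the 10 genes were past the threshold in WT Ngn3 (0.168% of all genes), 6S-A Ngn3 (0.562%) or controls (1.35%). Nothing is read from that count. Klf6 was higher at 8 days than at 2 days in WT Ngn3 (522 to 718 against 204 to 416 CPM, difference 1.03, SE 0.31) and in 6S-A Ngn3 (333 to 496 against 107 to 230 CPM, difference 1.23, SE 0.31), and the days did not overlap with either protein, where 7.75% and 8.72% of all genes were higher without overlap. In the control cells, no-color at 8 days and GFP only at 2 days, it was at 440 to 742 and 510 to 803 CPM, with a difference of 0.10 (SE 0.26). Whether the change with Ngn3 differed from that of the controls was not tested, and the controls of the days are of different kinds. Atf3 was likewise higher at 8 days with both proteins, by 0.83 (SE 0.40) and 1.15 (SE 0.40), and in controls by 0.59 (SE 0.35). Without replicate 1 of the 8-day groups these values were 0.66, 0.83 and 0.04 (SE 0.25). Fos differed by 0.64, 0.71 and 0.65 in WT Ngn3, 6S-A Ngn3 and controls, with standard errors of 0.35 to 0.40, and by 0.38, 0.47 and 0.06 (SE 0.23) without replicate 1.

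Jun and Jund went the other way. Jund was at 3.26 to 19.6 CPM in the 6S-A Ngn3 and 4.35 to 19.2 CPM in the WT Ngn3 cells of 8 days and at 30.4 to 54.5 and 35.5 to 55.1 CPM in those of 2 days, with differences of -1.89 (SE 0.66) for WT and -1.91 (SE 0.65) for 6S-A Ngn3, and of -1.63 (SE 0.53) for controls. Jun was lower at 8 days in WT Ngn3 (133 to 402 against 483 to 702 CPM, difference -0.96, SE 0.46) and in 6S-A Ngn3 (105 to 298 against 482 to 627 CPM, difference -1.46, SE 0.47), and differed by -0.31 (SE 0.39) in controls. Without replicate 1 these differences were -0.59, -1.15 and -0.64. For both genes the days did not overlap with either protein, where 14.2% and 14.0% of all genes were lower without overlap. Egr1, Fosb and Klf5 differed by less than their standard errors between the days in the Ngn3 groups, by -0.16 to 0.24. Without replicate 1 of the 8-day groups Klf5 was higher by 0.26 (SE 0.27) in WT and 0.63 (SE 0.26) in 6S-A Ngn3, and Fosb differed by -0.54 and -0.51 (SE 0.41 each). In controls, with all replicates, Fosb, Egr1 and Klf5 differed by -0.51 (SE 0.44), -0.16 (SE 0.21) and -0.26 (SE 0.46). The control difference of Fosb ran from -0.94 to -0.21 over all settings. Klf4 was higher by 0.77 (SE 0.35) in WT and 0.24 (SE 0.35) in 6S-A Ngn3, and Junb by 0.18 and 0.59 (SE 0.36 each), with overlapping groups, though Junb in 6S-A Ngn3 was at -0.07 without replicate 1. Among the other genes of the lists, Fosl1 was called higher (1.98, SE 0.42, adjusted p = 0.030) and Dusp4, an ERK phosphatase gene, lower (-2.24, SE 0.50, adjusted p = 0.042) at 8 days in 6S-A Ngn3. In controls Atf4 (0.82, SE 0.18, adjusted p = 0.030), Gadd45g (1.35, SE 0.25, adjusted p = 0.0091) and Hspa5 (0.73, SE 0.18, adjusted p = 0.041) were called higher and Elk3 (-0.97, SE 0.21, adjusted p = 0.026) and Hsf2 (-1.36, SE 0.25, adjusted p = 0.0091) lower. These calls of list genes come from the same joint fit across days, and nothing is read from them.

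Across the 7 groups, neighbours in the order of mean level overlapped in nearly every case. The exceptions were Junb between WT and 6S-A Ngn3 of 2 days, Klf5 between GFP only of 2 days and no-color 6S-A, and Klf6 between WT and 6S-A Ngn3 of 8 days. Klf6 had its highest mean in no-color WT cells, at 691 ± 65.6 CPM (SD, n = 3), followed by GFP only at 609 ± 168 and no-color 6S-A at 604 ± 150, and its lowest in 6S-A Ngn3 of 2 days at 172 ± 61.7 CPM. The lowest mean of Fos, Fosb, Junb, Atf3, Klf4 and Klf5 was also in 6S-A Ngn3 cells of 2 days, while that of Jun and Egr1 was in 6S-A Ngn3 cells of 8 days and that of Jund in no-color 6S-A cells.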

How the data were processed

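The authors deposited read counts per gene for 77 libraries, made by aligning reads to the mouse genome (mm10) with GSNAP and counting with HTSeq (0.5.3p3), per the labels' processing notes, without normalization. The lines for reads with no gene, ambiguous reads and unaligned reads (14.4%, 8.06% and 22.5% of reads) were left out. Of the 77 libraries, 76 passed the study's limits (spike-ins under 30%, over 1000000 reads on genes, over 10000 genes), a number of libraries left out that differs from that in the study's text, and technical repeats were summed to 21 biological replicates of 17757303 to 26627347 reads at 2 days and 2397470 to 17919627 at 8 days. Reads carry no molecular identifiers, so depth speaks for counting error only. Genes with reads in 5 or more libraries of the day entered edgeR 4.0.16 (TMM, robust quasi-likelihood test, Benjamini-Hochberg adjustment over all genes tested) in R 4.3.3, separately by time point and jointly for comparisons across days. The tests were checked on simulated data. Symbols were found for 45143 of 46078 identifiers with GENCODE M21. The members and lists of genes were chosen with earlier results of these data known. Besides the members, Neurog3, per list and comparison at most 3 genes past the threshold with the largest change, and 5 genes most like Fos and Klf6 were named. The labels share replicate numbers between groups, and same-numbered replicates deviated together within 2 days (correlations 0.107 to 0.518, 9 pairs) and 8 days (0.126 to 0.634, 18 pairs), so the numbers were taken as pairs within a day, but not across days (-0.246 to 0.185). Alternatives were DESeq2 1.42.0 and its size factors, edgeR's low-count filter, no library limits, 1 technical repeat, the replicate block, the mean of both no-color groups and leaving out replicates.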

Additional observations from a re-analysis of the deposited data

Results flagged for a closer look

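Among the 4 groups of 8 days, which hold 4 to 6 retained pools each, the highest and lowest pool of each of the 10 genes were compared with the rest by Dixon's ratio at the 95% level, in 40 group and gene combinations. In 2 of them a pool stood apart, and chance gives about 1 in 20 for independent values, which pools that share a replicate are not. Klf4 in the pool of WT Ngn3 replicate 3 was at 160 CPM, the only retained pool of that replicate, which was of passage 5, with a gap to the next pool of 0.88 of the range of the 4 pools. Klf6 in technical repeat 1 of 6S-A Ngn3 replicate 1 was at 697 CPM, with a gap of 0.78 of the range of 6 pools. Groups of 3 biological replicates were not tested.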

How the results depend on the processing

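At 8 days and across days, the spread between cultures and the low counts of Jund limit what can be seen. Of the values for the comparisons, 145 kept their side of the threshold and their size, and 6 did not, for causes that were not tested. With only the first technical repeat, the median difference of the 10 genes for WT Ngn3 against GFP only at 2 days was -1.04 in place of -0.73. With the replicate block, 2 of the 10 genes (Klf5 and Klf6) passed between 6S-A and WT Ngn3 at 2 days in place of 0. Between 8 and 2 days, 1 gene (Klf6) passed in 6S-A Ngn3 with the block or with DESeq2, 1 (Jun) without replicate 1 of every 8-day group, and 1 (Jund) in controls with the block, although the numbers do not pair samples across days, and nothing is read from these calls, since the 2-day libraries chose the genes. The block changed no other call of a member in a tested comparison. The omission of replicate 1 of every 8-day group was chosen after seeing the data. Signs were counted as turned where the difference exceeded its standard error in either setting. Without replicate 1 of every 8-day group, differences between 8 and 2 days turned to -0.54 and -0.51 for Fosb in WT and 6S-A Ngn3 and to -0.068 and -0.21 for Junb in 6S-A Ngn3 and controls, and those at 8 days to -0.59 for Junb between 6S-A and WT Ngn3 and -0.21 for Jun between the no-color groups. Leaving out single replicates gave, with turns at one end, -0.59 to 0.031 for Fosb between 6S-A and WT Ngn3 at 2 days (turned without WT Ngn3 replicate 3), -0.84 to 0.12 for Fos between WT Ngn3 and no-color WT (without no-color WT replicate 1), -0.59 to 0.45 for Junb between the proteins at 8 days and -0.068 to 0.90 for Junb in 6S-A Ngn3 between days (both without 6S-A Ngn3 replicate 1), and -0.13 to 1.12 for Jun between the no-color groups (without no-color 6S-A replicate 1). Of 785 values for the other named genes, 623 kept their call, 162 kept only their direction and 0 turned. Counts over all genes moved more: 638 to 4291 for WT Ngn3 and 1053 to 5912 for 6S-A Ngn3 against GFP only, 0 to 147 between the proteins at 2 days, and 17 to 421 and 58 to 502 against no-color cells, apart from omissions of single replicates. Leaving out each replicate alone gave 1966 to 2410, 3302 to 3820, 0 to 5, 8 to 78 and 19 to 80. Across days, again apart from single omissions, these counts ran from 0 to 251 in WT Ngn3, 4 to 896 in 6S-A Ngn3 and 11 to 1084 in controls. The other immediate early genes called lower at 2 days numbered 5 to 18 with WT and 11 to 21 with 6S-A Ngn3 over all settings. The counts called lower with WT and 6S-A Ngn3 were 1 to 5 and 1 to 7 for AP-1, Maf and ATF genes, 1 to 7 and 2 to 9 for upstream regulators, 0 to 5 and 0 to 6 for Klf and Sp genes, 1 to 7 and 2 to 6 for heat shock genes and 3 to 9 and 4 to 9 for ductal markers, and those called higher 5 to 12 and 6 to 12 for endocrine markers.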

Other observations

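The library of WT Ngn3 at 8 days that did not pass the read limit, technical repeat 1 of replicate 2, held 849278 reads on genes. Without scaling between libraries, Fos was at 1814 CPM in it, Jun at 1044, Klf6 at 764, Junb at 538, Jund at 43.6 and Klf5 at 61.2 CPM.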
